A study of Homo sapiens with 6 samples.

Results

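Leucine, isoleucine and valine, the branched-chain amino acids, are broken down by a mainly mitochondrial route, and the RNA of 10 genes of that route was followed in the human line LNCaP, prostate cancer cells that respond to androgen. The genes were chosen by name for their place in the route, with earlier results of these data known. They were the transaminases BCAT1 and BCAT2 and the dehydrogenase complex genes BCKDHA, BCKDHB and DBT. The others were the complex regulators BCKDK and PPM1K and the later enzymes IVD, ACADSB and ECHS1. All 10 were found among the 35430 genes of the deposited table. Polyadenylated RNA was sequenced in 3 libraries of control cells and in 3 libraries of cells kept for 1 week in 0.5 µM palbociclib, an inhibitor of the cell-cycle kinases CDK4 and CDK6. No vehicle, dose or culture time is given for the control cells in the sources used here, so time in culture and the drug cannot be told apart. All libraries come from a single cell line, and the labels do not say whether the replicates were separate cultures, so the spread behind the p-values may be technical.

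The first step of breakdown moves the amino group of a branched-chain amino acid to 2-oxoglutarate and is reversible. BCAT1 does this in the cytosol and BCAT2 in mitochondria. The branched-chain 2-oxoacid dehydrogenase then removes the carboxyl group irreversibly, which commits the carbon skeleton to oxidation. Its kinase BCKDK switches it off by phosphorylation, and its phosphatase PPM1K switches it on again. The acyl-CoA products pass through dehydrogenases of separate branches and through hydratases such as ECHS1, and end as acetyl-CoA, acetoacetate or propionyl-CoA.

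After palbociclib the cytosolic transaminase gene fell about 6-fold, while most of the mitochondrial route rose by a small amount. BCAT1 went from 54.4 ± 3.44 to 8.79 ± 0.552 CPM (counts scaled to a common library total with TMM factors; mean ± SD, n = 3 per group). By edgeR's quasi-likelihood test, 8 of the 10 genes were higher, 1 was lower and 1 was not called at a Benjamini-Hochberg adjusted p under 0.05. Control library 3 lay apart on the second principal component (16.8% of the variance), at 65.2, beside -45.9 to 7.92 for the other 5 libraries. Without it, 7 were higher and 1 lower. Among all 21218 genes tested, 20.1% were called higher and 18.5% were called lower. The median log2 fold change of the 10 genes was 0.33, beside -0.03 for all genes tested. Groups did not overlap for 9 of the 10 genes, beside 51.1% of all genes tested.

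Library totals lay between 57082715 and 78117945 estimated counts, of which about 4 stand for 1 sequenced fragment. All 8 luminal prostate markers checked had a mean of at least 1 FPKM (fragments by exon length and mapped total), and their summed level ran from 983.7 to 998.1 FPKM in controls and from 1483 to 1529 with palbociclib. Basal, endothelial and neuroendocrine marker lists summed to at most 1.73 FPKM in any library, and stromal and immune lists to at most 3.58. The part of the luminal difference in the results that follow was not tested. In bulk RNA, fewer cells with a transcript and less of it per cell cannot be told apart. Palbociclib minus control had a median of -0.14 over all genes with library size alone as the scaling, in place of -0.03. Higher genes made up 36.1% of all calls with that scaling and 52.1% with TMM.

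**Figure D1:**
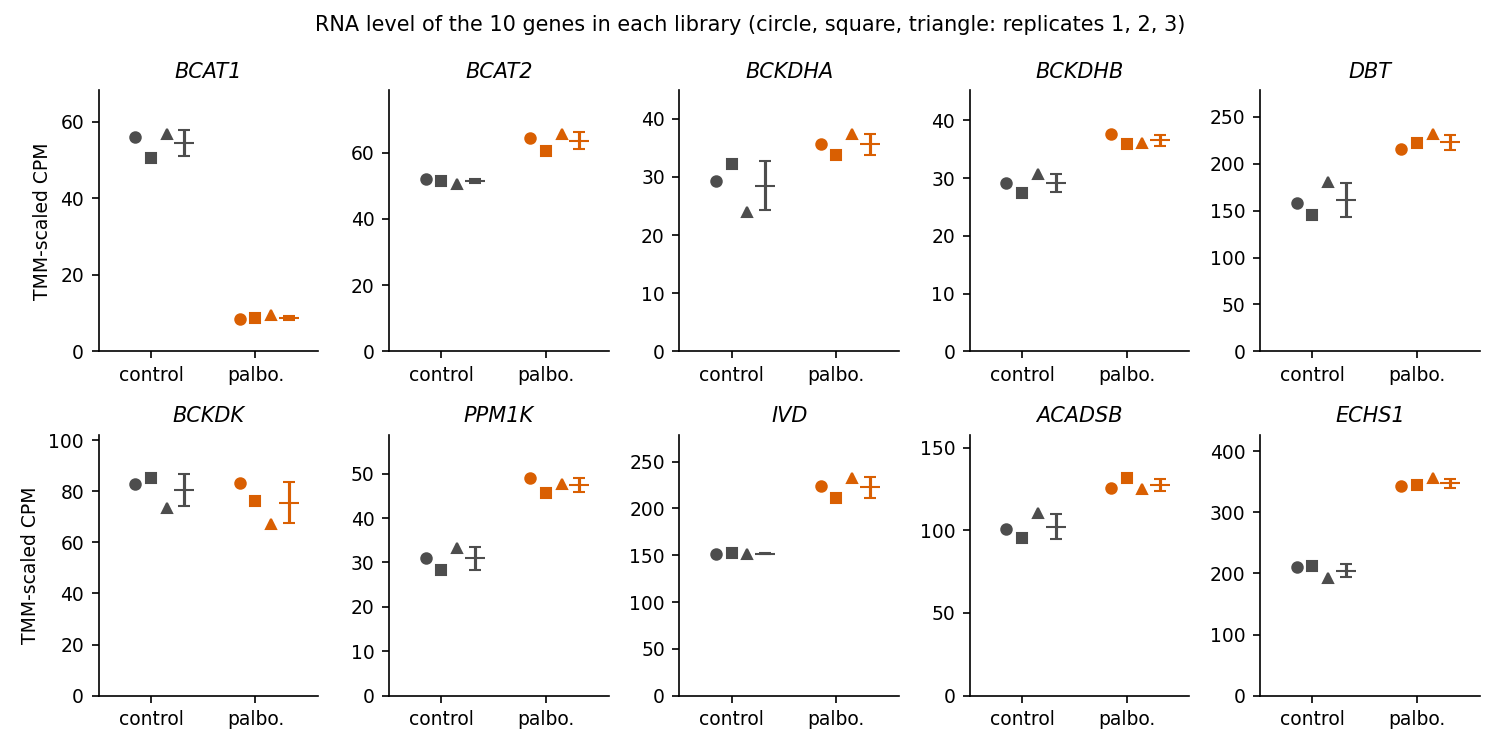
Level of each of the 10 genes in TMM-scaled CPM (vertical axes from 0) in the 3 control libraries (grey) and the 3 palbociclib libraries (orange, palbo.), with mean and SD beside the points. BCAT1 drops to between 8.35 and 9.41 CPM, BCKDK overlaps between the groups, and the other 8 genes lie higher in all palbociclib libraries than in any control library.

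Promoter windows, 250 bases before to 50 bases after a RefSeq start site on GRCh38.p14, were matched for 9 of the 10 genes. BCAT2 had no window and was not searched. The windows numbered 13, of which 5 belong to BCAT1. They were searched on both strands for TGATGNAA, the composite element bound by C/EBP and ATF factors, for CACGTG, the E-box bound by MYC and related factors, for TGACGTCA, the cyclic AMP response element, and for CCAAT. None of these motifs overlapped another one. The element TGATGNAA was in 1 of the 13 windows and in 3.62% of all 35116 promoter windows, and CACGTG was in 1 of 13 and in 7.26% of all. Both matches fell in the same window, that of the BCAT1 start at position 24949101 of chromosome 12, which is also the end of the gene in the deposited table. Windows that hold both made up 0.179% of all. The motifs were chosen with the fold changes known, and BCAT1 had 5 of the 13 windows. This share is therefore no measure of how unusual the match is. The composite element begins 48 bases before the start site, and the E-box at base 15 after it. The deposited values are per gene and do not say which of the 5 BCAT1 starts was used in these cells. The window is shown because BCAT1 is the gene that fell, with both motifs in capitals (chr12:24949052-24949351, minus strand, written 5′ to 3′ along the gene).

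BCAT1: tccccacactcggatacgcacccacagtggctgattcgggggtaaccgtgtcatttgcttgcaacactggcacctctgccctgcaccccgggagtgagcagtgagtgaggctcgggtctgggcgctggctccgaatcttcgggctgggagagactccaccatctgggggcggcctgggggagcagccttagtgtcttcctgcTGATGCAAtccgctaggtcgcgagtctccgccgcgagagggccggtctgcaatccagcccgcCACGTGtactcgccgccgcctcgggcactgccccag

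The cyclic AMP response element was in 0 of the 13 windows and in 1.85% of all. CCAAT was in 6 of 13 and in 34.6% of all, and 2 of those 6 windows belong to BCAT1. No CCAAT lay in the windows of PPM1K, ACADSB and ECHS1, which were also called higher. BCKDHB and IVD had 3 CCAAT matches each, and 3.26% of all windows had 3 or more. Their windows are shown because they hold the most CCAAT matches among the 13, with each CCAAT, or ATTGG where it lies on the other strand, in capitals (chr6:80106421-80106720 and chr15:40405545-40405844, both plus strand). Such matches describe letters in a window, and whether any factor binds there was not measured.

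BCKDHB: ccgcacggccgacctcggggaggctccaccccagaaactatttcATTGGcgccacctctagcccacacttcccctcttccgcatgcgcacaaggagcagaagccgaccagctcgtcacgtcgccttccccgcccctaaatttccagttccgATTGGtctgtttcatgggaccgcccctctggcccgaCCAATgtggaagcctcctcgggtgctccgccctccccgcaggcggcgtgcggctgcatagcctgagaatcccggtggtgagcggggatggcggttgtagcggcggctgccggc

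IVD: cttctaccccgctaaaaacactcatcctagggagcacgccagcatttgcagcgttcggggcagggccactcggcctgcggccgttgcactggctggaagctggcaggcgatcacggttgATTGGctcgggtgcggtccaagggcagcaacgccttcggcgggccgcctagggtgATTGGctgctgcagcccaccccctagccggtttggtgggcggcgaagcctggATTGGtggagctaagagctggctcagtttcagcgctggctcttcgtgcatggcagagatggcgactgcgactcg

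The transaminases moved in opposite directions. BCAT1 (ENSG00000060982, chromosome 12, 24810024 to 24949101 on hg38, as are all gene positions) had 55.9, 50.4 and 56.8 CPM in control libraries 1, 2 and 3 and 8.35, 8.62 and 9.41 CPM in palbociclib libraries 1, 2 and 3. Every palbociclib library lay far below every control library, and the libraries within a group were close together. The log2 fold change was -2.63 ± 0.077 (SE; edgeR adjusted p = 1.1e-07), a 6.19-fold lower level. Of the genes tested, 196 had a log2 fold change this low or lower, and 1.56% were called lower at 4-fold or more. The smallest value behind it was 535 estimated counts.

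BCAT2 (ENSG00000105552, chromosome 19, 48795062 to 48811029), the mitochondrial enzyme, had 52, 51.4 and 50.7 CPM in the controls and 64.5, 60.6 and 65.6 CPM with palbociclib. Controls were nearly level and all palbociclib libraries were above them. This was a rise of 0.31 ± 0.047 on the log2 scale (SE; edgeR adjusted p = 0.000935). On the FPKM scale, which allows genes to be compared per length, the transaminases together made 16 ± 0.255 FPKM in controls and 13.6 ± 0.568 with palbociclib (SD, n = 3). FPKM values carry no TMM factors, so the size of the difference in this sum between groups depends on the scaling. BCAT1 supplied 30, 28.1 and 30.9% of that sum in control libraries 1, 2 and 3, and 4.91, 5.36 and 5.39% in palbociclib libraries 1, 2 and 3. The ratio of BCAT1 to BCAT2 FPKM went from 0.422 to 0.055, a difference of -2.94 in log2 ratio (control SD 0.098, palbociclib SD 0.0801). An exact two-sided permutation test gave p = 0.1, the smallest that 3 against 3 libraries allow, and 0.133 after Benjamini-Hochberg adjustment over the 4 ratios computed.

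The genes of the dehydrogenase complex all rose, by 0.32 to 0.47 on the log2 scale. BCKDHA and BCKDHB encode the alpha and beta subunits of its decarboxylase component, called E1, and DBT encodes the core transacylase, called E2. DBT (ENSG00000137992, chromosome 1, 100186919 to 100249834) had 157.6, 145.2 and 180.4 CPM in the controls and 215.7, 221.7 and 231.6 CPM with palbociclib. Its groups did not overlap, although control library 3 was nearer to the palbociclib libraries than the other controls were. DBT rose by 0.47 ± 0.0732 log2 units (SE; edgeR adjusted p = 0.00105).

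BCKDHB (ENSG00000083123, chromosome 6, 80106647 to 80346254) had 29.2, 27.5 and 30.7 CPM in the controls and 37.7, 35.9 and 36.2 CPM with palbociclib. The groups were apart by several CPM. BCKDHB was higher by 0.33 ± 0.0613 log2 units (SE; edgeR adjusted p = 0.00279), and against control library 3 alone it was 0.25 with an adjusted p of 0.0851 in edgeR, over a range of 4.15e-05 to 0.0851 among the 15 alternatives. In every comparison with control library 3 alone, the control group is 1 library that is assumed to vary as the palbociclib libraries do.

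BCKDHA (ENSG00000248098, chromosome 19, 41397808 to 41425002) had 29.3, 32.3 and 23.9 CPM in the controls and 35.7, 33.8 and 37.4 CPM with palbociclib. Groups did not overlap, but control library 2 was within 2 CPM of palbociclib library 2, and control library 3 was the lowest. It was called higher by 0.32 ± 0.104 log2 units (SE; edgeR adjusted p = 0.037). Its call held in 5 of 15 alternatives, with adjusted p from 0.00789 to 0.227. Leaving out any one library except control library 2 ended it, and without control library 3 the log2 fold change was 0.21 (edgeR adjusted p = 0.0616). BCKDHA shares 1660 of its 2251 exon bases with another annotated gene on the same strand that received 7 counts over all libraries, so the division of reads between them is uncertain.

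The proportion of the E1 subunit genes did not differ beyond its spread. BCKDHA to BCKDHB FPKM was 1.81, 2.12 and 1.41 in the controls and 1.71, 1.70 and 1.87 with palbociclib, and the palbociclib libraries lay inside the control range. The difference in log2 ratio was 0.00 with a control SD of 0.297 (exact two-sided permutation test, p = 1, adjusted p = 1). With that spread a moderate difference would not have been detectable.

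Of the opposing regulators of the complex, the phosphatase gene was called higher and the kinase gene was not called. PPM1K (ENSG00000163644, chromosome 4, 88257620 to 88284769), the phosphatase that activates the complex, had 31.1, 28.3 and 33.3 CPM in the controls and 49, 45.7 and 47.7 CPM with palbociclib. All palbociclib libraries were above all controls. Its log2 fold change was 0.62 ± 0.0685 (SE; edgeR adjusted p = 0.000142), a 1.54-fold higher level. Its exons share 263 of 11371 bases with PPM1K-DT on the opposite strand, which had 534 counts over all libraries against 15551 for PPM1K.

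BCKDK (ENSG00000103507, chromosome 16, 31106107 to 31112567), the kinase that inactivates the complex, had 82.7, 85.1 and 73.3 CPM in the controls and 83.2, 76.3 and 67 CPM with palbociclib. The groups overlapped, and the lowest library was palbociclib library 3. The log2 fold change was -0.09 ± 0.0843 (SE; edgeR adjusted p = 0.45), and its 95% interval ran from 0.823-fold to 1.07-fold of the control level. Against control library 3 alone the value was 0.04 (edgeR adjusted p = 0.874, range 0.094 to 0.947). The ratio of BCKDK to PPM1K FPKM was 7.83, 8.84 and 6.47 in the controls and 4.99, 4.91 and 4.13 with palbociclib, and the groups did not overlap. On the log2 scale this ratio differed by -0.72 (exact two-sided permutation test, p = 0.1, the smallest possible, and 0.133 adjusted over the 4 ratios).

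**Figure D2:**
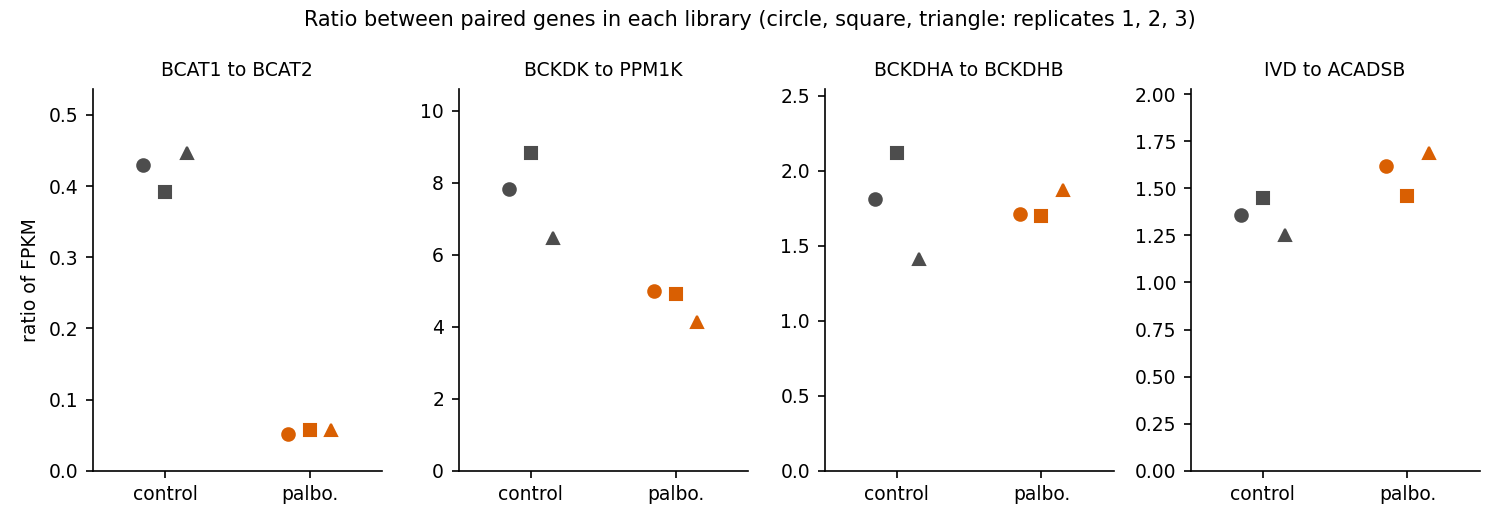
Ratio of FPKM between paired genes in each library (vertical axes from 0; grey for control, orange for palbociclib, palbo.). The BCAT1 to BCAT2 ratio lies between 0.392 and 0.447 in controls and between 0.0516 and 0.057 with palbociclib, the BCKDK to PPM1K ratio is at least 6.47 in controls and at most 4.99 with palbociclib, BCKDHA to BCKDHB overlaps, and IVD to ACADSB is separated by a small margin.

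All 3 later enzymes rose. ECHS1 (ENSG00000127884, chromosome 10, 133362485 to 133373354), the short-chain enoyl-CoA hydratase that serves valine and isoleucine breakdown as well as fatty acid oxidation, had 210.1, 211.5 and 192.7 CPM in the controls and 342.7, 344.7 and 355.9 CPM with palbociclib. The gap between the groups was wide compared with the spread within them. At 0.76 ± 0.0448 log2 units (SE; edgeR adjusted p = 3.94e-06), this was the largest rise among the 10 genes, a 1.7-fold higher level.

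IVD (ENSG00000128928, chromosome 15, 40405485 to 40435947), the isovaleryl-CoA dehydrogenase of the leucine branch, had 151.2, 152.1 and 151.8 CPM in the controls and 224.1, 210.9 and 232.3 CPM with palbociclib. Control libraries were nearly identical, and the palbociclib libraries were all well above them. IVD was higher by 0.55 ± 0.0428 log2 units (SE; edgeR adjusted p = 1.87e-05).

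ACADSB (ENSG00000196177, chromosome 10, 123008979 to 123058290), the short/branched-chain acyl-CoA dehydrogenase of the isoleucine branch, had 100.9, 95.3 and 110.2 CPM in the controls and 125.5, 131.5 and 125.2 CPM with palbociclib. Groups were apart, with control library 3 the nearest to the palbociclib libraries. For ACADSB the log2 fold change was 0.32 ± 0.0561 (SE; edgeR adjusted p = 0.00202), and on log2(FPKM + 0.1) limma gave 0.21 with an adjusted p of 0.0685, over a range of 5.12e-07 to 0.0685. The ratio of IVD to ACADSB FPKM was 1.36, 1.45 and 1.25 in the controls and 1.62, 1.46 and 1.69 with palbociclib. The difference in log2 ratio was 0.23 (exact two-sided permutation test, p = 0.1, the smallest possible, and 0.133 adjusted over the 4 ratios).

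**Figure D3:**
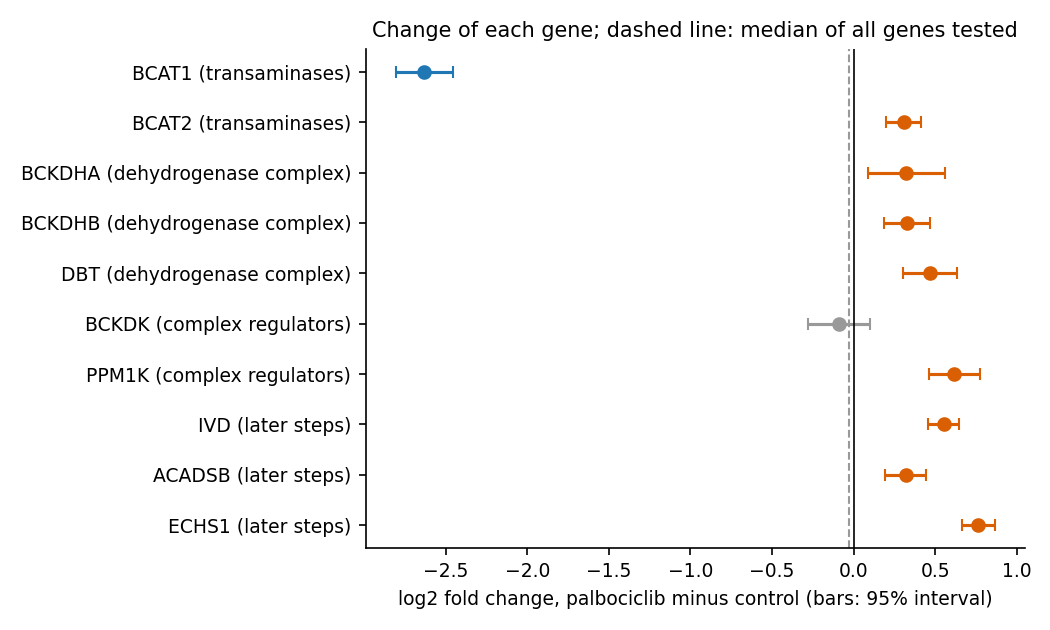
Log2 fold change of each gene, palbociclib minus control, with its 95% interval from the edgeR fit (orange called higher, blue called lower, grey not called); the dashed line marks the median of all genes tested, -0.03. BCAT1 stands at -2.63, BCKDK spans 0, and the other 8 genes lie between 0.31 and 0.76.

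Compared per length, ECHS1 was the most abundant of the 10 transcripts in both groups, at 160.4 ± 8.82 FPKM in controls and 252.5 ± 5.81 with palbociclib (SD, n = 3). IVD followed at 22.1 and 30.1 FPKM. In controls the ranges of IVD and BCKDK (20.7 FPKM) overlapped, and ACADSB (16.4), DBT (13.9), BCKDHA (12.6) and BCAT2 (11.3) formed a run in which each overlapped the next. BCKDHB (7.15), BCAT1 (4.76) and PPM1K (2.71) came last, in steps without overlap. With palbociclib the end of the order was exchanged: PPM1K was at 3.86 FPKM and BCAT1 at 0.712 FPKM, the lowest of the 10, with no overlap between them. ACADSB (18.9), BCKDK (18.1) and DBT (17.8) then overlapped their neighbours, and the ranges of all other neighbours were separate.

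Further genes of the route were read from lists chosen by function, with earlier results of these data known. Among 22 other enzymes and cofactor genes of breakdown, 15 rose, 1 fell and 6 were not called, with a median log2 fold change of 0.32. On log2(FPKM + 1) in limma, as with no scaling beyond library size, 13 were called higher and 3 lower. The largest rises were those of ABAT, a transaminase best known for breaking down GABA (20.7 ± 2.17 to 48.6 ± 0.718 CPM, log2 fold change 1.24), HIBCH, the hydrolase of the valine branch (19.5 ± 2.39 to 38.3 ± 1.32 CPM, 0.98), and MMAA, which helps load cobalamin onto methylmalonyl-CoA mutase (13.3 ± 0.969 to 24.8 ± 0.769 CPM, 0.90). DLD, the lipoamide dehydrogenase that completes the complex as E3 and is shared with pyruvate dehydrogenase, was at 201.3 ± 5.87 CPM in controls and rose to 253.9 ± 5.58 (0.33, edgeR adjusted p = 0.000169). The gene that fell was PCCA, the alpha subunit of propionyl-CoA carboxylase (36.2 ± 0.699 to 29 ± 1.33 CPM, -0.32, edgeR adjusted p = 0.00246). PCCB, its beta subunit, named after its value was seen, rose from 217.1 ± 6.49 to 308.3 ± 10.2 CPM (0.51, edgeR adjusted p = 2.28e-05), so the subunit genes of this enzyme moved in opposite directions. PCCB shares 1661 of 7498 exon bases with STAG1 on the opposite strand, whose reads there cannot be told apart.

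Carriers of branched-chain amino acids were split, with 3 higher, 4 lower and 1 not called of 8 tested (median -0.37), while SLC6A15 was too low to be tested. SLC7A5, the light chain of the main leucine importer, fell from 34.9 ± 5.74 to 4.68 ± 0.219 CPM (-2.90 ± 0.131, edgeR adjusted p = 8.75e-07), and SLC3A2, its heavy chain, from 456.3 ± 21.5 to 158 ± 11.3 CPM (-1.53). SLC7A7, a light chain that exchanges cationic for neutral amino acids, was called lower (-1.97, edgeR adjusted p = 0.0262), but control libraries 1, 2 and 3 had 5.82, 8.51 and 1.15 CPM, and palbociclib libraries 1.07 to 1.48 CPM. Against control library 3 alone it was at 0.19 (edgeR adjusted p = 0.759), and 6 of 15 alternatives kept the call (adjusted p from 0.000171 to 0.759). SLC7A8, a neutral amino acid exchanger that pairs with the same heavy chain, rose from 75.4 ± 3.30 to 138 ± 2.95 CPM (0.87), SLC7A6 rose by 0.33, and SLC25A44, the mitochondrial carrier of branched-chain amino acids, rose from 60.1 ± 2.17 to 78.2 ± 3.43 CPM (0.38, edgeR adjusted p = 0.000383).

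Relatives of the route's enzymes were compared in the same fit. Of 14 tested genes of sister 2-oxoacid dehydrogenase complexes, mainly those of pyruvate and 2-oxoglutarate, and their regulators, 9 rose and 2 fell (median 0.31). The number called lower was 4 on log2(FPKM + 1) in limma as well as with no scaling beyond library size, and 1 without control library 1 or 2, without palbociclib library 2 or 3, and against control library 3 alone. The pyruvate dehydrogenase kinase PDK3 (0.68), OGDH, the first component of 2-oxoglutarate dehydrogenase (0.59), and PDHX, the E3-binding protein of pyruvate dehydrogenase (0.54), led the rises, and the kinases that fell were PDK1 (-0.40) and PDK2 (-0.23). The PDK2 call held in 10 of 15 alternatives, with adjusted p from 0.00414 to 0.325, the highest against control library 3 alone in edgeR (-0.15). It was also lost without control library 1 (-0.17) or 2 (-0.24) and without palbociclib library 2 (-0.21) or 3 (-0.20). PDK4 was too low to be tested. Among 8 other acyl-CoA dehydrogenases 6 rose and 1 fell (median 0.42). ACADL (0.90, from 1.82 to 3.39 CPM), GCDH of lysine breakdown (0.56) and ACADS of short-chain fat oxidation (0.52) led the rises, and ACAD11 fell (-0.78). The log2 fold change of ACADL was 0.91 without control library 1 (edgeR adjusted p = 0.0523), 0.76 without palbociclib library 1 (0.0651) and 0.57 against control library 3 alone (0.211), over a range of 0.00359 to 0.211, and it was called in none of these 3. SLC7A6 shares 3372 of 7588 exon bases with SLC7A6OS on the opposite strand, so its count is uncertain. Shorter overlaps, or overlaps with genes of few counts, touch ABAT, HIBCH, MMAA, DLD, PDK1, PDK2, PDHX, GCDH, ACADL, ACAD11, SLC7A8, LARS1, GOT2 and GLUD1.

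Enzymes that use the products or the same amino acids showed both directions. Of the 6 synthetases that charge tRNA with leucine, isoleucine or valine, IARS1 (711.4 ± 22.4 to 380.4 ± 7.29 CPM, -0.90) and LARS1 (-0.27), both cytosolic, fell, and the mitochondrial LARS2 rose (0.41), with 3 not called and a median of -0.03. Of 8 enzymes of glutamate and 2-oxoglutarate, which the transaminases interconvert, 4 rose and 2 fell (median 0.21). With library size alone 2 were called higher and 3 lower, and on both log2 FPKM scales limma called 2 higher and 2 lower. GOT1, the cytosolic aspartate transaminase, fell from 172.7 ± 2.21 to 107.1 ± 4.42 CPM (-0.69), and GOT2, its mitochondrial counterpart, rose from 219.4 ± 6.15 to 337.5 ± 10.5 CPM (0.62). For the alanine transaminases the mitochondrial gene was the one that was lower. GPT2, which encodes the mitochondrial enzyme, fell from 243.5 ± 11 to 148.5 ± 4.76 CPM (-0.71), and GPT, which encodes the cytosolic enzyme, rose from 3 ± 0.529 to 5.99 ± 0.723 CPM (1.00). Against control library 3 alone GPT was at 0.75 and not called (edgeR adjusted p = 0.0561, range 5.47e-06 to 0.0561), and it shares 207 of 2756 exon bases with an opposite-strand gene of similar count. GLUD1, glutamate dehydrogenase, was called higher (0.24), and the call ended with library size alone (0.13, edgeR adjusted p = 0.101) and on both log2 FPKM scales (limma adjusted p = 0.158 and 0.222, range from 6.74e-05).

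**Figure D4:**
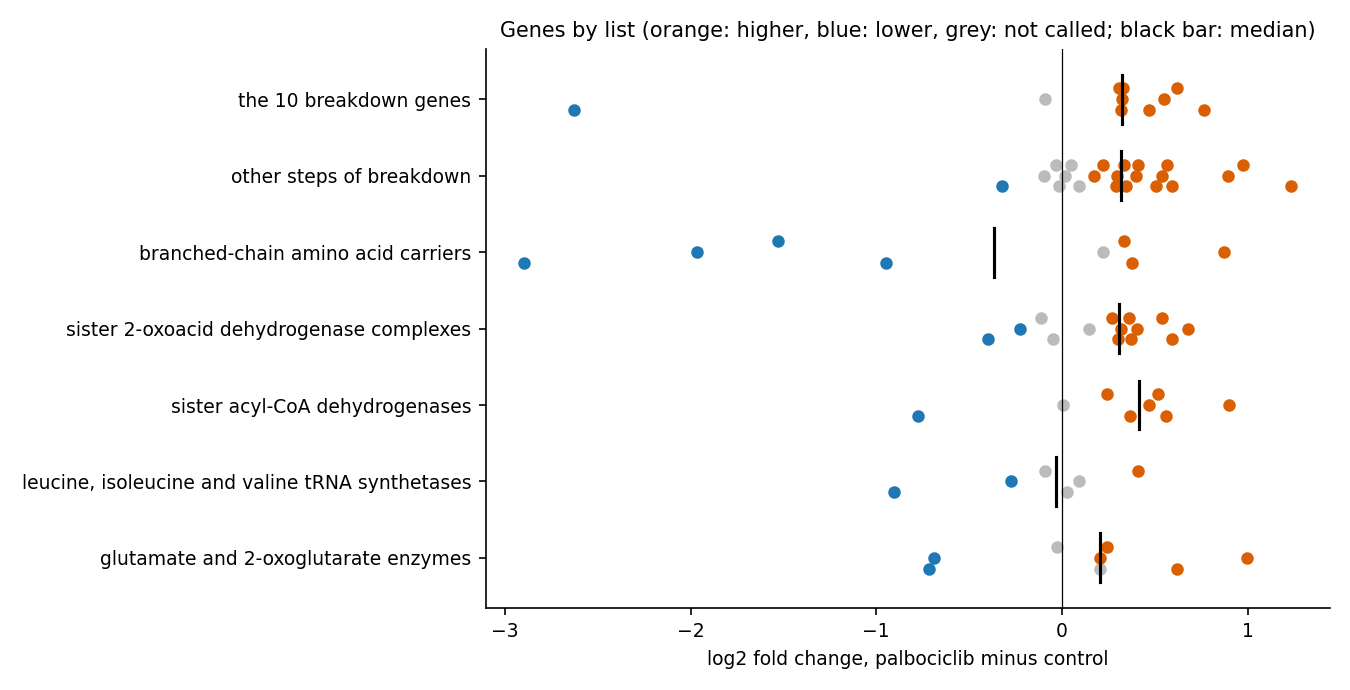
Log2 fold change, palbociclib minus control, of every tested gene in each list (orange called higher, blue called lower, grey not called; the black bar is the list's median). The medians are 0.33 for the 10 breakdown genes and 0.32 for other steps of breakdown. They are 0.31 for the sister 2-oxoacid dehydrogenase complexes, 0.42 for the sister acyl-CoA dehydrogenases and 0.21 for the glutamate and 2-oxoglutarate enzymes. The carriers stand at -0.37 and the tRNA synthetases at -0.03.

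Likeness of pattern was measured as the root mean square difference of log2 CPM, centred on each gene's mean, over the 6 libraries and 66 tested genes of the other lists. Among these 66 genes the nearest to BCAT1 were SLC7A5 (0.24 log2 units), SLC3A2 (0.564) and SLC43A1 (0.843), all from the carrier list. SLC3A2 (log2 fold change -1.53) fell less than BCAT1 (-2.63). Genes outside the lists were not compared. Of all genes tested, 196, BCAT1 among them, had a log2 fold change as low as that of BCAT1 or lower. SLC43A1, a leucine carrier, had gone from 139.4 ± 4.83 to 72.2 ± 2.06 CPM (-0.95). The genes nearest to ECHS1, the largest rise, were SLC7A8 (0.0548), MMAA (0.0863) and GOT2 (0.0882). With 2 groups of 3 libraries this measure mostly reflects the size of the fold change.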

How the data were processed

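RNA of 6 LNCaP libraries was analysed (3 control, 3 palbociclib). The submitters' processing notes name cutadapt 1.9, HISAT2 2.0.4 on hg38 and StringTie 1.3.4d, while the design text has fastp in the place of cutadapt. Strand use and the annotation release are not given in the sources used here. Values in the count sheet are estimated counts per gene that the authors derived with StringTie and deposited unscaled, as whole numbers, so rounding changed none. The authors' FPKM values scale fragments by exon length and by mapped reads, per the series' design text. Gene positions are other values that the authors deposited beside them. 0 per-sample columns were left without a sample.

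Here, edgeR 4.0.16 (R 4.3.3) was run on all genes with filterByExpr (minimum count 10, minimum total 15), which kept 21218 and removed 14212 genes, and with TMM scaling and the quasi-likelihood F-test without a block. P-values were Benjamini-Hochberg adjusted over all genes tested (threshold 0.05). SE is the absolute log2 fold change over the square root of F. The code was tested on simulated data. Ratios used FPKM with no pseudocount and scipy 1.17.1. Libraries of a group differed beyond sampling noise (chi-square per degree of freedom 3.45 to 6.24 on counts divided by 4), so none was merged with another as a repeat deposit. Exon overlaps are from GENCODE 44, and promoters from RefSeq.

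The 10 genes and the lists were chosen with earlier results of these data known. The text names all 10 genes, up to 3 rises and 3 falls per list, DLD and SLC25A44, and the 3 genes most like the largest rise and the largest fall. Motifs were chosen with the fold changes known. Alternatives were library size alone, DESeq2 1.42.0 size factors and Wald test, no count filter, counts divided by 4, limma 3.58.1 on log2(FPKM + 1) and log2(FPKM + 0.1), a replicate block, each library left out and, added after seeing the data, control library 3 alone. Some genes are not reported here.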

Additional observations from a re-analysis of the deposited data

How the results depend on the processing

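Of the 10 genes, BCAT1 was called lower in all 15 alternatives, and between 6 and 8 genes were called higher. BCAT2, DBT, PPM1K, IVD and ECHS1 kept their calls in every alternative run. BCKDHA lost its call in 10, and BCKDHB and ACADSB in 1 each. The number of genes called higher over all tested was 2749 with limma on log2(FPKM + 0.1), beside 4270, and the number called lower was 2182 against control library 3 alone, beside 3921. BCKDK changed sign to 0.0361 and SLC7A7 to 0.193 against control library 3 alone, neither of them called; that fit has 1 control library. The log2 difference in the BCAT1 to BCAT2 ratio was -2.78 with 0.1 and -1.93 with 1 added to FPKM, as a pseudocount shrinks ratios of low values. That of BCKDHA to BCKDHB, at 0.00209, ran from -0.156 to 0.139 as single libraries were left out, which were control libraries 3 and 2, and was -0.0414 without palbociclib library 3. Libraries of equal replicate number showed no shared shift: their deviations from the group means correlated between -0.0341 and -0.00794. The labels do not say whether equal numbers share a culture or day, and these correlations cannot settle it. With a replicate block, 3855 genes were higher and 3438 lower, 7 of the 10 genes were called higher, and BCKDHA was at 0.331 (edgeR adjusted p = 0.0636), beside 0.322 without the block. All cells were of a single line. With 3 libraries per group, the exact permutation tests of ratios cannot give a p below 0.1.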
